A study of Mus musculus with 52 samples.

Results

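The growth hormone and insulin-like growth factor (IGF) axis was followed in mouse liver through 10 genes: the receptor Ghr, its transducer Stat5b, the feedback inhibitors Socs2 and Cish, the ligand Igf1, its carrier subunit Igfals and the IGF binding proteins Igfbp1, Igfbp2, Igfbp3 and Igfbp4. They are 10 of the 18193 genes measured by probe sets that name 1 gene, and each was read from its brightest probe set, judged by the mean of the 52 arrays. The livers came from male C57Bl6/N mice with a given age of 8 to 12 weeks, kept on a standard diet. That age is not tied to surgery or sampling, so at 4 weeks and 3 months age and time after surgery cannot be told apart. Operated mice had a partial hepatectomy, a surgery that removes most of the liver mass and is followed by regrowth, and livers were taken after 1 hour (3 arrays), 6 hours (4), 12 hours (4), 24 hours (11), 48 hours (4), 3 days (4), 4 days (4), 1 week (4), 2 weeks (2), 4 weeks (4) and 3 months (3). Untreated livers (5 arrays) were the control of every time, and no sham-operated group was analysed here, so the resection and the surgery itself cannot be told apart. Each array held RNA of whole liver tissue, so fewer cells of a type and less RNA per cell cannot be told apart.

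Growth hormone binds its receptor on hepatocytes, the receptor-bound kinase Jak2 phosphorylates Stat5b, and Stat5b enters the nucleus and switches on Igf1, Igfals, Socs2 and Cish. The liver is the main source of circulating IGF-1. In blood, IGF-1 travels in a complex with Igfbp3 and the acid-labile subunit encoded by Igfals, while the other binding proteins hold smaller pools. Igfbp1 is made by hepatocytes and is known to be repressed by insulin and raised in fasting and stress, through FOXO transcription factors among others.

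The promoters of Cish and Igfals are shown because they hold STAT5-type motifs, and that of Igfbp1 because it holds a FOXO-type motif. They are RefSeq windows of build GRCm38.p6 that run from 250 bases before the transcription start to 50 bases after the start. The capitals mark TTCNNNGAA (STAT5 type), GTAAACA or its reverse strand, and CAAAACA (both FOXO type), each searched on both strands, and no matches overlapped in these windows.
Cish, chr9:107296409-107296708, plus strand: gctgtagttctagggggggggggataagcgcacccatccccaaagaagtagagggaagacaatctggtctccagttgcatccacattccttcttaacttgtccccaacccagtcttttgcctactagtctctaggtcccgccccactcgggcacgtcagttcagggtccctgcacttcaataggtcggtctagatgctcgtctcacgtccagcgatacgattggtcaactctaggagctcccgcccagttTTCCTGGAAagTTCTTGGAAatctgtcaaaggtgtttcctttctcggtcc
Igfals, chr17:24877981-24878280, plus strand: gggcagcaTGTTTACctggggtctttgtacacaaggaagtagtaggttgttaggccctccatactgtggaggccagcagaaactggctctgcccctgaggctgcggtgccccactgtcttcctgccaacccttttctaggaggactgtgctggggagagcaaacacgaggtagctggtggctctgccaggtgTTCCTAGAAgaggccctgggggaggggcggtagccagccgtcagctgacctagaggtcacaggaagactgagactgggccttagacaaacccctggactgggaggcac
Igfbp1, chr11:7197537-7197836, plus strand: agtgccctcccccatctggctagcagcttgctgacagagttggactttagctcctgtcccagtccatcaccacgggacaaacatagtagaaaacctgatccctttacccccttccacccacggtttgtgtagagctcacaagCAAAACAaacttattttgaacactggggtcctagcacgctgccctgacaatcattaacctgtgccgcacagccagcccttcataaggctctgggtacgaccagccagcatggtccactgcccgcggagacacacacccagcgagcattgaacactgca

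Windows were found for 9 of the 10 genes, 14 windows in all, since several genes have more than 1 start. Cish held TTCCTGGAA at positions 1 to 9 and TTCTTGGAA at positions 12 to 20, counting the start site as position 1. TTCNNNGAA was present in 8.30% of the 32851 mouse promoter windows of this length, and at least 2 copies in 0.457% of them. The printed Igfals window, 1 of 3 for this gene, held TTCCTAGAA at positions -58 to -50 and TGTTTAC, the reverse strand of GTAAACA, at positions -242 to -236. Another Igfals window held TTCTCAGAA at positions -236 to -228. GTAAACA was present in 3.65% of all windows, and CAAAACA, found in Igfbp1 at positions -108 to -102, in 6.28%. The windows of Ghr, Stat5b, Igf1, Igfbp2, Igfbp3 and Igfbp4 held none of these letters. Igfbp1 and Igfbp3 are neighbours on chromosome 11 with 0 other genes of the RefSeq table between them.

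Expression is given as log2 values in which 1 unit is a doubling of signal, and the median of all probe sets in control livers, a guide to background, was 4.04. Changes were tested with limma, a linear model that pools information on the spread over genes, and a gene was called changed where its Benjamini-Hochberg adjusted p over all 18193 genes was under 0.05. Nothing in the labels states that each array is its own mouse, so the spread of arrays within a group may be technical. The p-values rest on that spread pooled over all groups, not on the groups compared alone. Arrays far from their own group at one time therefore also widen the SE at the other times. Of 9 hepatocyte markers, all were well above background in every group, and the log2 of their mean linear signal lay between 13.05 and 13.32 over all arrays. Of 11 Kupffer cell markers, between 3 (at 6 hours and 12 hours) and 10 (at 1 week and 3 months) rose at each time and 0 fell, and at 1 week 21.8% of all genes rose. All 9 cell division markers rose at 48 hours and at 3 days, and of 6 cholangiocyte markers between 3 and 5 were near background in each group. The hybridization controls averaged 9.51 to 10.16 in the operated groups, against 10.66 in control livers, and the 3′ minus 5′ Gapdh difference averaged 0.65 to 1.099 in the operated groups, against 1.61 in control livers. A change that all operated groups share cannot be told apart from these array-wide differences.

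There were 7 arrays that stood apart, by a rule taken from earlier work on these data: signal of the female-specific transcript Xist (3 arrays, numbers 9, 10 and 11 at 24 hours), a Gapdh difference above 2, or a correlation below 0 with the rest of the own group. They were array 1 of the controls, arrays 1, 9, 10 and 11 at 24 hours, array 4 at 1 week and array 1 at 4 weeks. Array 1 at 24 hours, array 4 at 1 week and array 1 at 4 weeks lay nearest to the 12 hours group over the 2000 most variable genes, with correlations of 0.44, 0.38 and 0.94 with it, against 0.39, -0.28 and -0.50 with their own group. These 3 arrays carried low Ghr (9.75, 9.73 and 10.12), low Igfals (6.11, 5.29 and 6.18) and high Igfbp1 (12.93, 13.90 and 13.17). Results that rest on the 7 arrays are given with and without them. The rule used the same expression values, so a call gained without these arrays is not independent support. Leaving them out changes the pooled spread at every time. It made the SE of Ghr and Igfals smaller and that of Socs2 and Cish larger.

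All 10 genes changed over the time course by the moderated F test over the 11 contrasts, as did 64.6% of all genes. At 1 hour limma called 0 of the 10, against 5.04% of all genes. At an unadjusted p under 0.05 there were 2, and 0 were called when only the 2 groups were compared. At 6 hours 3 were called, against 22% of all genes, at 12 hours 7, against 29.9%, and at 24 hours 6, against 31.7%. The share at 12 hours and 24 hours was above that of all genes, and at 12 hours 5 of the 10 fell, as did 12% of all genes. At 48 hours 3 were called, against 30.8% of all genes, at 3 days 4, against 39.4%, at 4 days 3, against 32.8%, and at 1 week 4, against 36.7%, which is near the background in each. At 2 weeks limma called 0, against 3.41% of all genes, with 2 at an unadjusted p under 0.05 and 0 when only the 2 groups were compared. At 4 weeks 1 was called, against 14.7% of all genes, and at 3 months 2, against 30.1%. Without the 7 arrays 1 was called for 1 hour, against 4.3% of all genes, 5 for 6 hours (23.8%), 7 for 12 hours (29.8%), 5 for 24 hours (24.6%), 4 for 48 hours (29.3%) and 6 for 3 days (39.2%). The later counts were 3 at 4 days (31.5%) and 3 for the 1 week livers (27.5%). They were 0 for 2 weeks (3.91%), 0 for 4 weeks (5.85%) and 2 for 3 months (29.5%). All these comparisons share the same 5 control arrays. Ranges that did not overlap those of the controls were common among all genes. The share was 19.1% at 1 hour (2 of the 10 genes), 29.6% at 6 hours (5), 32.8% at 12 hours (6) and 8.96% at 24 hours (0). It was 27.1% at 48 hours (2), 29.1% at 3 days (5), 28% at 4 days (2) and 29.7% at 1 week (3). At 2 weeks it was 29% (3), at 4 weeks 16.6% (2) and at 3 months 34.8% (2).

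**Figure D1:**
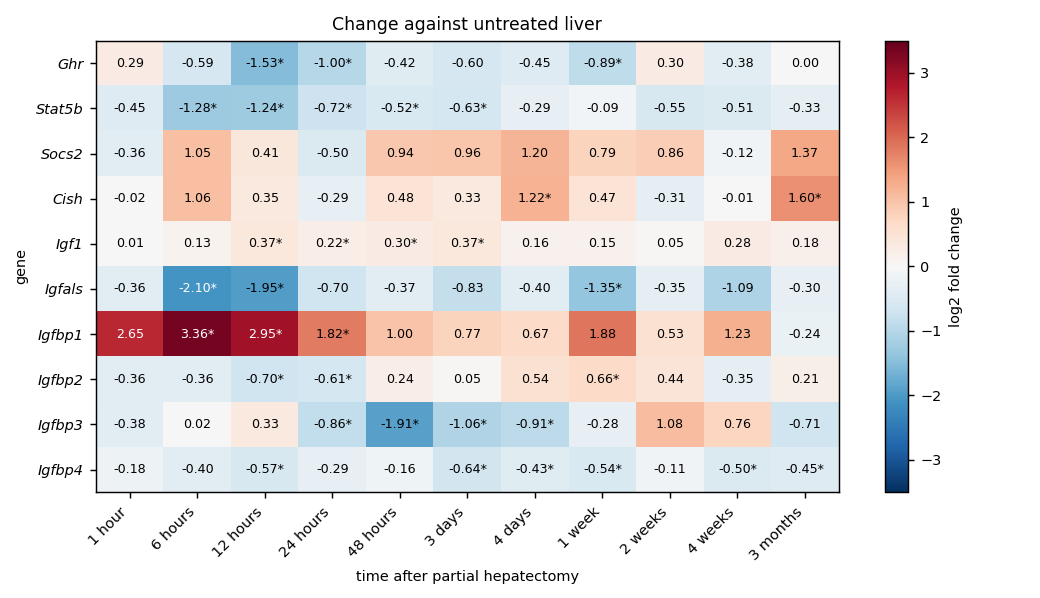
Log2 fold change of each gene (rows) at each time after partial hepatectomy (columns) against untreated liver, with red for higher, blue for lower and an asterisk where the adjusted p was under 0.05. Igfbp1 had the highest value, 3.36 at 6 hours, and Igfals the lowest, -2.10 at the same time.

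Ghr, the growth hormone receptor, fell at 12 hours, 24 hours and 1 week. At 12 hours the 4 arrays had 10.74, 10.43, 10.15 and 10.51, against 11.73, 12.08, 11.97, 12.19 and 11.94 in control livers. All 4 lay below every control. The level averaged 10.46 ± 0.24 (SD, n = 4) at 12 hours and 11.98 ± 0.17 (n = 5) in control livers, a log2 fold change of -1.53 ± 0.34 (SE) or 2.88-fold lower (limma, adjusted p = 0.00048). At 6 hours the 4 arrays were already below every control, with 11.28, 11.28, 11.53 and 11.47 and a log2 fold change of -0.59 ± 0.34, which did not pass (adjusted p = 0.239). The 6 hours value without the 7 arrays was -0.65 ± 0.15 and passed (adjusted p = 0.00063). No 6 hours array is among the 7, so this call came with a similar log2 fold change and a smaller SE.

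At 24 hours the 11 arrays for Ghr ran from 9.75 over a median of 11.15 to 11.75, and the log2 fold change was -1.004 ± 0.27 (limma, adjusted p = 0.0040). Arrays 1 and 9 had 9.75 and 9.85, and the other 9 lay between 10.46 and 11.75. The 24 hours change of Ghr without the 7 arrays was -0.65 ± 0.13 (adjusted p = 0.00024), and Ghr was then lower also in the 48 hours (-0.48), 3 days (-0.66), 4 days (-0.51) and 1 week (-0.50) groups, with adjusted p from 0.00048 to 0.015. With all arrays the 1 week change was -0.89 ± 0.34 (adjusted p = 0.035), with 11.56, 11.66, 11.40 and 9.73 in the 4 arrays. Leaving out array 4 of that group alone ended the 1 week call for Ghr (-0.44, adjusted p = 0.317), as did the mean of its probe sets in place of the brightest (-0.33, adjusted p = 0.415) and leaving out control array 2, 3 or 4 (adjusted p = 0.056, 0.050 and 0.065).

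The lowest level of Ghr was that of 12 hours, and the highest were those of 2 weeks (12.37 and 12.20) and 1 hour (12.32, 12.21 and 12.27), both above every control array. Neither passed the test, with log2 fold changes of 0.30 ± 0.42 and 0.29 ± 0.37. In the order of group means, neighbouring groups overlapped in range at each place except between 1 hour and control. With all arrays no step between neighbouring times passed for Ghr. Without the 7 arrays 4 steps did: 6 hours was lower than 1 hour (-0.88 ± 0.16), 12 hours lower than 6 hours (-0.94 ± 0.15), 24 hours higher than 12 hours (0.94 ± 0.13) and 2 weeks higher than 1 week (0.74 ± 0.19), with adjusted p up to 0.036. The other 2 probe sets of Ghr did not all move with it: 1451501_a_at was lower at 24 hours (-0.72 ± 0.22) and 1451871_a_at at 12 hours (-1.04 ± 0.34), each called at that time alone.

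Stat5b, the transcription factor that carries the growth hormone signal to the nucleus, fell at 6 hours and stayed called through 3 days. At 6 hours the arrays had 5.72, 5.57, 5.79 and 5.78 and at 12 hours 5.60, 5.85, 5.70 and 5.85, against 7.18, 7.17, 7.03, 6.98 and 6.58 in control livers. No array of either time reached the lowest control. The log2 fold change was -1.28 ± 0.20 at 6 hours and -1.24 ± 0.20 at 12 hours (limma, adjusted p = 3.0e-06 and 4.2e-06), which is 2.42-fold and 2.36-fold lower. The Stat5b arrays of 12 hours and 6 hours overlapped.

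The step from 1 hour to 6 hours was itself called for Stat5b, with 6 hours lower by a log2 fold change of -0.82 ± 0.23 (adjusted p = 0.010), and so was the return, with 24 hours higher than 12 hours by 0.52 ± 0.17 (adjusted p = 0.044). The 24 hours arrays ran from 5.51 over a median of 6.20 to 6.94, a change of -0.72 ± 0.16 against control (adjusted p = 0.00048). At 48 hours Stat5b was lower by -0.52 ± 0.20 (adjusted p = 0.041), and at 3 days by -0.63 ± 0.20 (adjusted p = 0.010). The 48 hours call ended without 48 hours array 1 or 2 or without control array 1, 2, 3 or 4 (adjusted p from 0.056 to 0.114), and the 3 days call without 3 days array 2 (-0.51, adjusted p = 0.050017). At 4 weeks the change of Stat5b was -0.51 ± 0.20 and did not pass (adjusted p = 0.073). It passed without 4 weeks array 2 or 3 or control array 5 (adjusted p = 0.039, 0.017 and 0.041). Array 1 of the 4 weeks group had 5.52 against 6.84, 7.08 and 6.46 in the others. Without the 7 arrays, which drops this array, the 4 weeks change was -0.15 ± 0.15 (limma, adjusted p = 0.640). The second probe set of Stat5b, 1422102_a_at, with a mean of 4.96, close to background, was called at no time.

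Socs2 and Cish, 2 SH2-domain proteins that Stat5b induces and that damp the growth hormone receptor in turn, varied widely among control livers. Socs2 was called at no time, although its mean was above that of controls at 8 of the 11 times. Its highest group mean was 8.98 ± 0.67 (SD, n = 3) at 3 months, against 7.62 ± 1.28 (n = 5) in control livers, a log2 fold change of 1.37 ± 0.57 (limma, adjusted p = 0.065). At 4 days it was 1.196 ± 0.53 (adjusted p = 0.074). For Socs2 the 5 controls had 6.59, 8.29, 5.98, 9.05 and 8.18, a range of over 3 log2 units, and for Cish they had 7.22, 5.79, 5.33, 7.91 and 7.76. Control array 3 was the lowest for both genes and control array 4 the highest. For Socs2 the 4 days change passed without 4 days array 2 or control array 4 (adjusted p = 0.045 and 0.024). The 3 days change (0.96 ± 0.53) passed without control array 4 (0.047), and the 3 months change without control array 2 or 4 (0.048 and 0.021). The lowest values under the alternatives were 0.22 for 4 days, -0.12 for 3 days and 0.37 for 3 months. Without the 7 arrays the Socs2 changes at these times were 0.94 ± 0.56, 0.70 ± 0.56 and 1.11 ± 0.61 (limma, adjusted p = 0.203, 0.329 and 0.166).

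Cish rose at 4 days and at 3 months. At 4 days its 4 arrays had 8.02, 8.00, 8.01 and 8.08, and at 3 months 8.21, 8.22 and 8.77, all above the highest control of 7.91. The 4 arrays at 4 days lay close together, while the controls spread over more than 2 log2 units. The log2 fold change was 1.22 ± 0.43 at 4 days (limma, adjusted p = 0.025) and 1.60 ± 0.46 at 3 months (adjusted p = 0.0083), or 2.34-fold and 3.03-fold higher. The 4 days call ended without 4 days array 2 or without control array 2 or 3 (adjusted p = 0.052, 0.085 and 0.117). At 6 hours the arrays had 7.95, 7.99, 7.62 and 7.91, a change of 1.06 ± 0.43 that did not pass (adjusted p = 0.068) but passed without control array 4 or 5 (0.021 and 0.028). Once the 7 arrays were left out, 3 months was also higher than 4 weeks (1.71 ± 0.54, adjusted p = 0.045).

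Some operated groups were split for Cish. At 1 hour the arrays had 5.74, 7.94 and 6.66, and at 1 week 5.61, 8.10, 8.10 and 7.28, both as wide as the controls. At 48 hours (7.18, 7.29, 7.46 and 7.21) and 3 days (7.16, 6.92, 7.04 and 7.41) they were close together in the middle of the control range. Socs2 and Cish had a correlation of 0.76 over the 12 group means, 0.61 over the 52 arrays and 0.67 over the 11 arrays at 24 hours, values that share the same arrays and are given as a description. Of the 5 other Socs2 probe sets, 1446085_at was higher at 3 months (1.60 ± 0.39) and 1442586_at, with a mean of 3.35, lower at 24 hours, 3 days and 1 week.

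**Figure D2:**
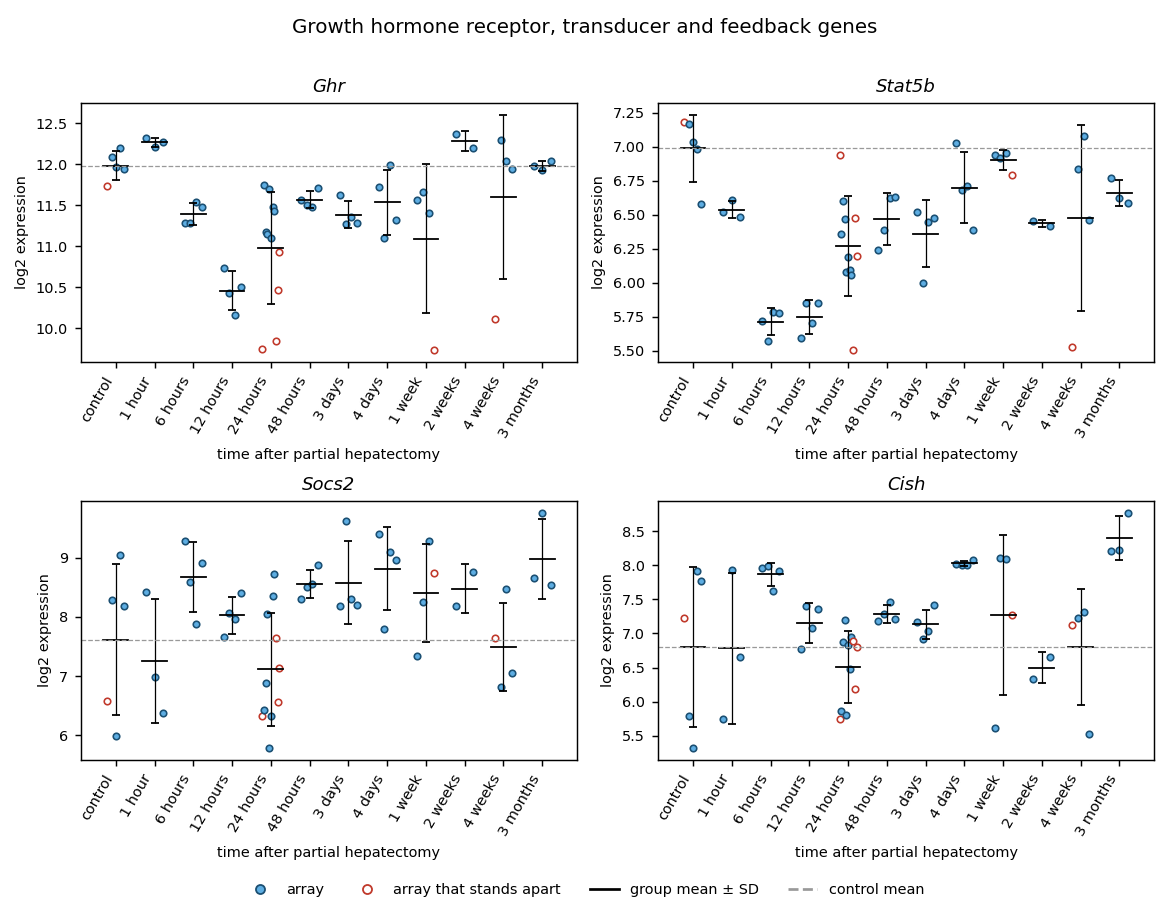
Log2 expression of Ghr, Stat5b, Socs2 and Cish on each array, by time after partial hepatectomy with untreated controls at the left. Points are arrays, hollow red points the 7 arrays that stood apart, bars the group mean ± SD and the dashed line the control mean. The 12 hours arrays of Ghr lie between 10.15 and 10.74, below all controls, and the controls of Socs2 and Cish span over 2 log2 units.

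Igf1, the hormone itself, changed little on its brightest probe set. The highest group mean was 11.80 ± 0.07 (SD, n = 4) at 3 days, against 11.43 ± 0.15 (n = 5) in control livers, whose arrays lay between 11.25 and 11.61. The brightest set rose at 12 hours (0.37 ± 0.10), 24 hours (0.22 ± 0.08), 48 hours (0.30 ± 0.10) and 3 days (0.37 ± 0.10, log2 fold change ± SE), with limma adjusted p from 0.0040 to 0.038. The largest of these is a 1.30-fold rise. All 4 arrays at 12 hours (11.69, 11.69, 11.79 and 12.00) and at 3 days (11.73, 11.76, 11.87 and 11.85) lay above the highest control, while 24 hours and 48 hours overlapped the controls. The 24 hours call of Igf1 ended without any one of 24 hours arrays 2, 3, 4, 5, 6 and 10 or without control array 1 or 3 (adjusted p from 0.051 to 0.135), and the 48 hours call without 48 hours array 2 or 4 or control array 1 or 3 (adjusted p from 0.052 to 0.123). At 4 weeks the change was 0.28 ± 0.10 (adjusted p = 0.062), which passed without control array 2 (0.035).

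The 4 probe sets of Igf1 disagreed. At 24 hours 1437401_at averaged 10.63, against 11.17 in control livers, and fell (-0.54 ± 0.13, adjusted p = 0.0013 over 34945 probe sets), and 1434413_at fell as well (-0.41 ± 0.11, adjusted p = 0.0049). At the same time the brightest set, 1452014_a_at, rose. The fourth set, 1419519_at, averaged 11.29 at 12 hours, against 10.42 in control livers, and rose there (0.87 ± 0.14, adjusted p = 6.0e-06), at 48 hours (0.46 ± 0.14) and at 4 weeks (0.62 ± 0.14). With the mean of the probe sets in place of the brightest, Igf1 at 24 hours turned to -0.17. With that mean the Igf1 calls at 48 hours (0.05, adjusted p = 0.771) and 3 days (0.13, adjusted p = 0.387) ended, and that at 12 hours held (0.35, adjusted p = 0.015). No direction of the gene as a whole is given for 24 hours.

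**Figure D3:**
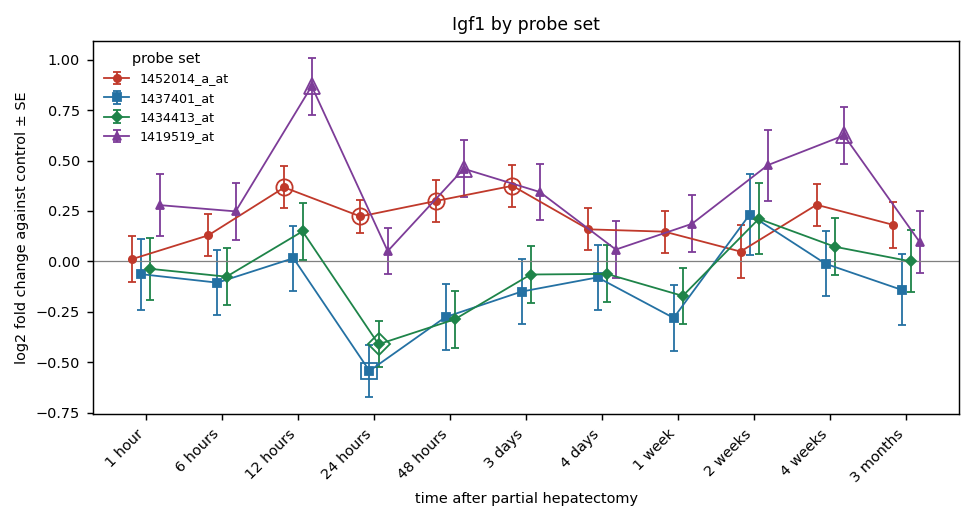
Log2 fold change ± SE of the 4 Igf1 probe sets at each time after partial hepatectomy against untreated liver, with a large open symbol where the adjusted p was under 0.05. At 24 hours the brightest set lies at 0.22 while 2 others lie at -0.54 and -0.41, and 1419519_at reaches 0.87 at 12 hours.

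Igfals, the acid-labile subunit that closes the circulating IGF-1 complex, fell the furthest of the 10 genes. At 6 hours its arrays had 6.80, 6.60, 6.83 and 6.77, and at 12 hours 7.22, 7.06, 6.78 and 6.55, against 8.52, 8.86, 8.45, 9.05 and 9.36 in control livers. The groups were more than 1 log2 unit apart at their nearest arrays. The log2 fold change was -2.10 ± 0.48 at 6 hours and -1.95 ± 0.48 at 12 hours (limma, adjusted p = 0.00093 and 0.0017), or 4.28-fold and 3.86-fold lower. At 1 hour the arrays had 8.33, 8.39 and 8.75, a change of -0.36 ± 0.53 that did not pass (adjusted p = 0.820), and 6 hours was lower than 1 hour by -1.74 ± 0.55 (adjusted p = 0.031).

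At 24 hours 7 of the 11 Igfals arrays were at 8.56 to 8.95, within the control range, and arrays 1, 9, 10 and 11 had 6.11, 6.50, 7.47 and 8.27. These 4 are among the 7 arrays that stood apart. The change at 24 hours was -0.70 ± 0.39 with all arrays (adjusted p = 0.167). With the 7 arrays left out, 24 hours was higher than 12 hours by 1.85 ± 0.18 (adjusted p = 8.3e-10), a step that did not pass with all arrays. At 1 week Igfals had 8.30, 8.36, 8.06 and 5.29, and its change was -1.35 ± 0.48 (adjusted p = 0.026). It was -0.61 (adjusted p = 0.310) without array 4 of that group, and -1.22 (adjusted p = 0.062) without control array 5. It was -0.69 ± 0.22 at 1 week without the 7 arrays (adjusted p = 0.019), and Igfals was then also lower at 3 days (-0.91 ± 0.21, adjusted p = 0.00070).

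Ghr and Igfals were low on the same arrays. Their correlation was 0.71 over the 12 group means, 0.76 over the 52 arrays and 0.94 over the 11 arrays at 24 hours, where the low end is formed by arrays that stood apart. The 6 hours arrays left this pattern: Igfals was as low as at 12 hours while Ghr was at 11.28 to 11.53. Stat5b and Igfals had a correlation of 0.74 over the group means and -0.04 over the arrays at 24 hours.

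**Figure D4:**
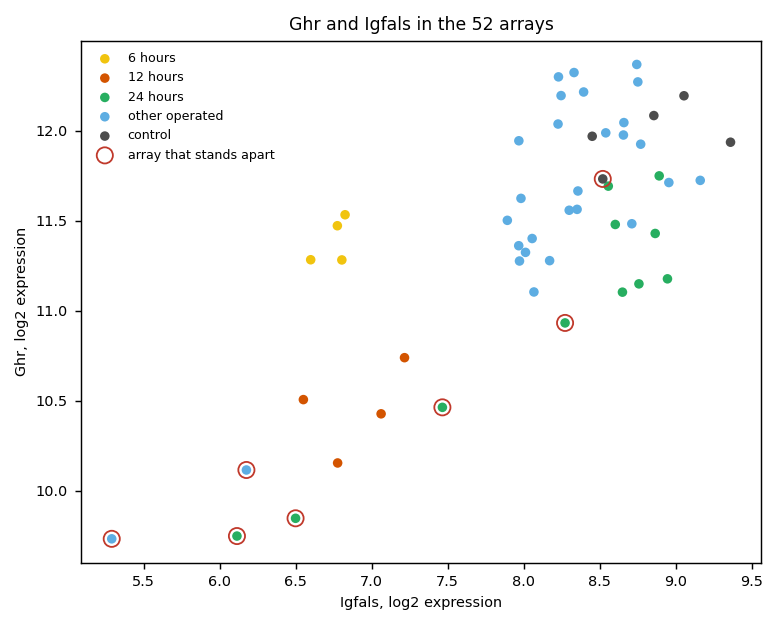
Log2 expression of Ghr (vertical) against Igfals (horizontal), with 1 point per array. Colours give the time group, and red rings the 7 arrays that stood apart. The 4 arrays at 6 hours sit at an Igfals of 6.60 to 6.83 with a Ghr of 11.28 to 11.53, and the 4 at 12 hours at a Ghr of 10.15 to 10.74.

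Igfbp1, the insulin-repressed binding protein, had the largest rise. At 6 hours its arrays had 13.24, 13.35, 13.42 and 13.32, and at 12 hours 12.84, 12.97, 13.13 and 12.75, against 11.22, 11.16, 8.44, 11.19 and 7.86 in control livers. All operated arrays of these times lay above every control, and the controls split into 3 arrays near 11.2 and 2 arrays lower by more than 2 log2 units. The log2 fold change was 3.36 ± 0.77 at 6 hours and 2.95 ± 0.77 at 12 hours (limma, adjusted p = 0.00092 and 0.0028), or 10.3-fold and 7.72-fold higher. At 1 hour the arrays were already at 12.63, 12.68 and 12.55, above every control, with a change of 2.65 ± 0.84 that did not pass (adjusted p = 0.056). It passed without the 7 arrays (2.96 ± 0.78, adjusted p = 0.020) and without control array 2 or 4 (adjusted p = 0.034 and 0.035).

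At 24 hours the Igfbp1 arrays fell into 2 sets, with 6 arrays (1, 7, 8, 9, 10 and 11) at 12.69 to 13.01 and 5 arrays (2 to 6) at 9.78 to 11.26. The change against control was 1.82 ± 0.62 (adjusted p = 0.021), and the call ended without the 7 arrays (1.55, adjusted p = 0.072) and without control array 3 or 5 (1.44 and 1.30, adjusted p = 0.101 and 0.138). Arrays 7 and 8 were high for Igfbp1 (13.01 and 12.93) but not low for Igfals (8.60 and 8.86). At 1 week the change was 1.88 ± 0.77 (adjusted p = 0.052), with 13.90 on array 4 against 10.59, 11.59 and 11.35 on the others. It passed without 1 week array 1 or control array 1, 2 or 4 (adjusted p = 0.028, 0.037, 0.033 and 0.033). Without the 7 arrays, which drops 1 week array 4, the change was 1.51 ± 0.78 and did not pass (limma, adjusted p = 0.143). Single arrays at 4 days (13.16) and 4 weeks (13.17) were as high as the 12 hours group. By 3 months Igfbp1 averaged 9.74 ± 0.82 (SD, n = 3), against 9.97 ± 1.68 (n = 5) in control livers.

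Igfbp2, a binding protein also made in liver, fell at 12 hours and 24 hours and rose at 1 week, and passed at no other time. At 12 hours its arrays had 9.98, 9.97, 10.95 and 9.77, against 10.46, 11.33, 10.999, 10.90 and 10.69 in control livers, and array 3 at 12 hours lay within the control range. Its log2 fold change was -0.70 ± 0.24 at 12 hours and -0.61 ± 0.20 at 24 hours (limma, adjusted p = 0.024 and 0.014). At 1 week the arrays had 11.79, 11.75, 11.75 and 10.86, and the change was 0.66 ± 0.24 (adjusted p = 0.030) or 1.58-fold higher. It was 0.78 ± 0.25 without the 7 arrays, which drops array 4. The step between was called too: 48 hours was higher than 24 hours by 0.85 ± 0.21 (adjusted p = 0.0093).

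The Igfbp2 calls were close to the threshold. That of 12 hours ended without 12 hours array 1, 2 or 4 or control array 2 (adjusted p from 0.071 to 0.105) and that of 24 hours without control array 2 (0.067). That of 1 week ended without 1 week array 1, 2 or 3 or control array 1 or 5 (adjusted p from 0.063 to 0.094), and the 4 days change (0.54 ± 0.24, adjusted p = 0.084) passed without control array 2 (0.046).

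Igfbp3, the main carrier of IGF-1 in blood, which in rat liver is made mostly by non-parenchymal cells, was lower at each time between 24 hours and 4 days. At 48 hours its arrays had 4.83, 4.32, 4.88 and 5.09, against 6.66, 6.01, 7.05, 6.90 and 6.83 in control livers. All 4 were below every control and within about 1 log2 unit of the background. The log2 fold change was -0.86 ± 0.29 for 24 hours, -1.91 ± 0.36 for 48 hours, -1.06 ± 0.36 for 3 days and -0.91 ± 0.36 for 4 days (limma, adjusted p = 0.019, 9.0e-05, 0.017 and 0.047). The 48 hours value is 3.75-fold lower.

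Both steps down were called for Igfbp3, with 24 hours lower than 12 hours by -1.19 ± 0.31 (adjusted p = 0.0098) and 48 hours lower than 24 hours by -1.05 ± 0.31 (adjusted p = 0.038). Without the 7 arrays the second of these did not pass. At 2 weeks (8.09 and 7.46) and at 4 weeks (7.08, 7.82, 7.75 and 7.14) every array was above the highest control of 7.05. The changes were 1.08 ± 0.45 and 0.76 ± 0.36 and did not pass (adjusted p = 0.193 and 0.159). Of all genes, 29% at 2 weeks and 16.6% at 4 weeks also had ranges that did not overlap the controls. The second probe set, 1458268_s_at, fell at 48 hours (-1.06 ± 0.26) and rose at 2 weeks (1.09 ± 0.32, adjusted p = 0.048 over 34945 probe sets). At 3 months the arrays had 5.75, 6.48 and 5.71, lower than 4 weeks by -1.47 ± 0.41 (adjusted p = 0.043).

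The Igfbp3 calls outside 48 hours were less firm. That of 24 hours ended without control array 3 (adjusted p = 0.062), and that of 3 days without 3 days array 1 or 3 (adjusted p = 0.078 and 0.097). That of 4 days ended without 4 days array 2, which had 4.48 (-0.48, adjusted p = 0.352), without 4 days array 4, or without control array 1, 3, 4 or 5 (adjusted p from 0.074 to 0.098). It also ended without the 7 arrays (-0.92, adjusted p = 0.075) and with the mean of the probe sets (-0.66, adjusted p = 0.085). Over the same arrays the 11 Kupffer cell markers had a log2 mean signal of 5.40 to 6.87 at 48 hours and 7.11 to 7.46 at 2 weeks, against 4.49 to 5.39 in control livers. Of these markers 6 rose at 48 hours, against 17.4% of all genes, and 9 at 2 weeks, against 2.8%, and 4 were near background (under 4.5) in control livers. The 11 sinusoidal endothelial markers had 6.22 to 7.06 at 48 hours, against 5.68 to 6.69 in control livers, with 0 of them called there by limma, 0 at an unadjusted p under 0.05 and 1 when only the 2 groups were compared. Their part in the result was not tested.

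Igfbp4, which holds IGF-1 away from its receptor until it is cleaved, was lower by small steps at many times. At 3 days the arrays had 11.53, 12.04, 11.50 and 11.63, and at 3 months 11.81, 11.89 and 11.87, against 12.36, 12.23, 12.29, 12.24 and 12.42 in control livers. All arrays of both times lay below every control, and the controls were tight. The log2 fold change was -0.57 ± 0.16 for 12 hours, -0.64 ± 0.16 for 3 days, -0.43 ± 0.16 for 4 days, -0.54 ± 0.16 for 1 week, -0.50 ± 0.16 for 4 weeks and -0.45 ± 0.17 for 3 months (limma, adjusted p from 0.0015 to 0.043). The largest of these is 1.55-fold lower.

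Several Igfbp4 calls rested on single arrays. At 1 week array 4 had 10.90 against 12.20, 12.12 and 11.87, and without it the change was -0.25 (adjusted p = 0.159). At 4 weeks array 1 had 11.42, and without it the change was -0.37 (adjusted p = 0.180), while leaving out 4 weeks array 4 or control array 1 or 5 gave adjusted p of 0.052 to 0.071. The 3 months call ended without any of the 3 arrays of that time or without control array 1, 3 or 5 (adjusted p from 0.057 to 0.125), and the 4 days call without 4 days array 2 or 4 or control array 1 or 5 (adjusted p from 0.064 to 0.139). Without the 7 arrays Igfbp4 was lower at 6 hours, 12 hours, 3 days, 4 days and 3 months, and no longer called at 1 week and 4 weeks.

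Of the 6 Igfbp4 probe sets, the second brightest, 1437406_x_at, was lower in the 12 hours, 3 days, 4 days, 1 week and 3 months groups. The dimmer 1421992_a_at averaged 8.97 at 24 hours, against 8.36 in control livers, and rose (0.61 ± 0.18, adjusted p = 0.0085). With the mean of the 6 sets all 6 calls of Igfbp4 ended, including those of 12 hours (-0.31, adjusted p = 0.218) and 3 days (-0.41, adjusted p = 0.077). With the most variable set they ended too, and the change turned to 0.15 at 1 week and 0.08 at 3 months. The calls of Igfbp4 therefore rest on which probe set is read.

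**Figure D5:**
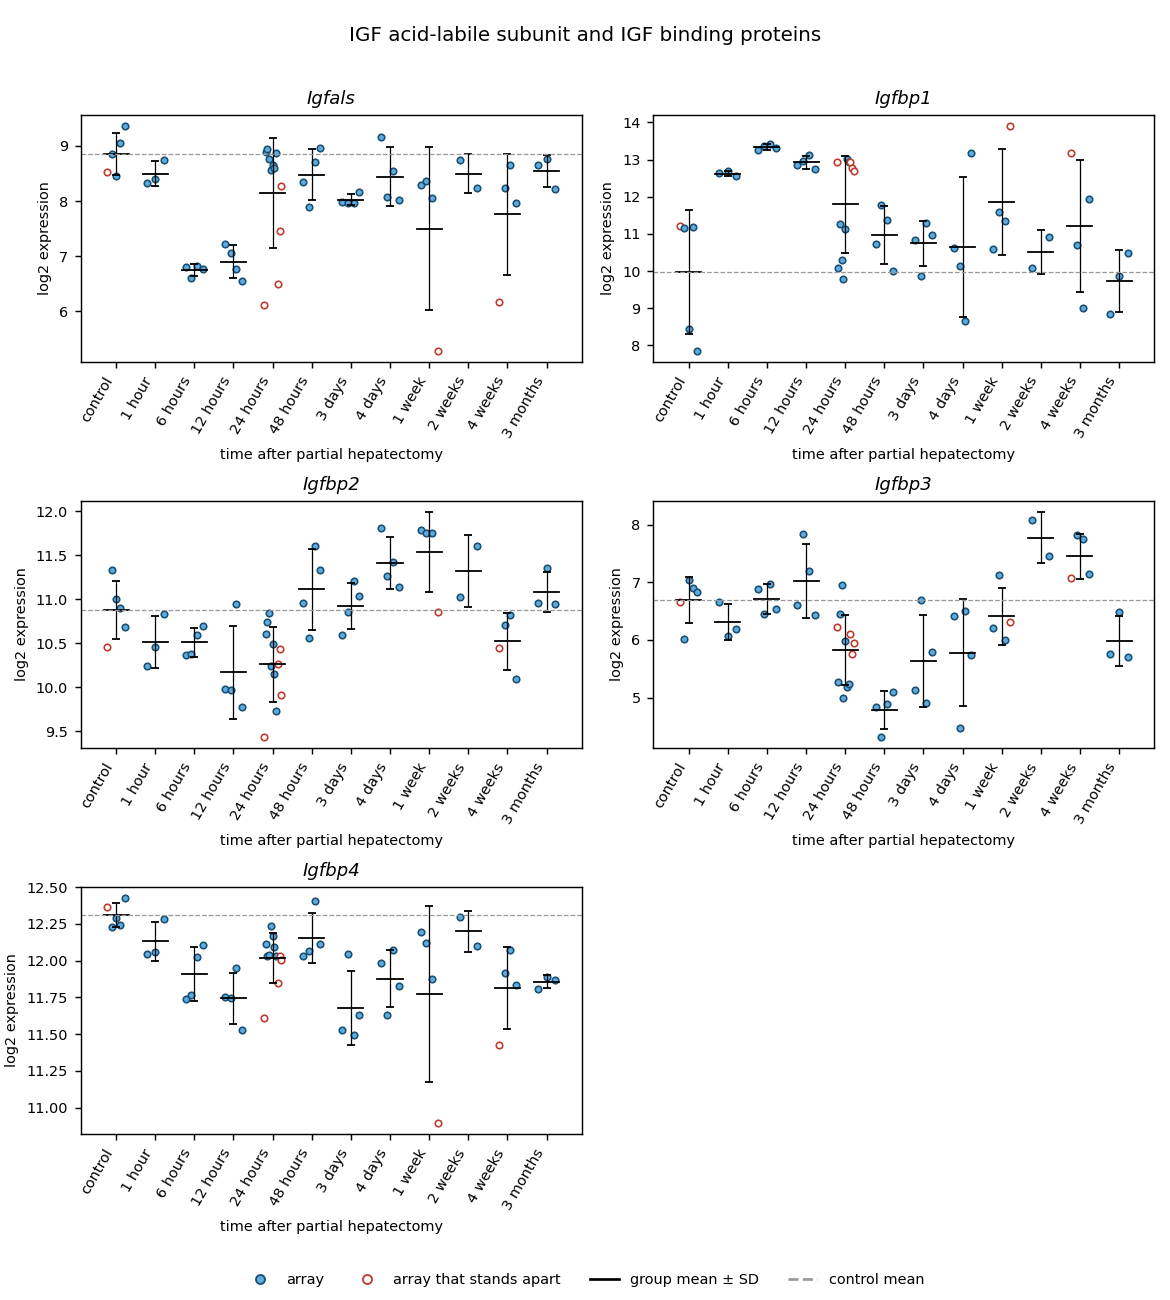
Log2 expression of Igfals and the 4 binding proteins on each array, by time after partial hepatectomy with untreated controls at the left. Points are arrays, hollow red points the 7 arrays that stood apart, bars the group mean ± SD and the dashed line the control mean. Igfals lies at 6.55 to 7.22 at 6 hours and 12 hours, Igfbp1 above 12.5 through 12 hours, and Igfbp3 at 4.32 to 5.09 at 48 hours.

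Between neighbouring times 7 of 100 changes of the 10 genes were called, against 3.85% for all genes, and without the 7 arrays 14 were, against 6.58%. The calls with all arrays were those of Stat5b, Igfals, Igfbp2 and Igfbp3 given above. For Socs2, Igf1 and Igfbp1 no step passed either with or without the 7 arrays.

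Of 19 other measured genes of the growth hormone receptor pathway, 5 rose, 3 fell and 11 did not pass at 6 hours, when 11.4% of all genes rose and 10.5% fell. They had a median log2 fold change of -0.10, against -0.02 for all genes. Socs3, a feedback inhibitor shared with IL-6 signalling, averaged 11.07 ± 0.17 (SD, n = 4) at 6 hours and 7.24 ± 0.87 (n = 5) in control livers, a rise of 3.83 ± 0.55 (limma, adjusted p = 7.1e-07). Ptpn2, a phosphatase that acts on Jak and STAT proteins, rose by 1.95 ± 0.28 at 6 hours. Bcl6, a repressor that competes with Stat5 for its sites in liver, was lower at 48 hours (-2.52 ± 0.69), and Onecut1, a hepatocyte transcription factor, at 1 week (-1.60 ± 0.58). Both spread widely in control livers, with 7.13 ± 1.56 (SD, n = 5) for Bcl6 and 7.61 ± 1.47 for Onecut1. Onecut1 averaged 6.01 ± 1.54 (n = 4) at 1 week, a group that holds array 4, and no value without that array is given here. Stat5a, chosen after its values were seen as the close relative of Stat5b, also fell at 6 hours (-0.83 ± 0.20) and 12 hours (-0.84 ± 0.20).

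Of 17 measured genes for IGF and insulin ligands, receptors and adaptors, 2 rose and 5 fell at 6 hours, against 11.4% and 10.5% of all genes. At 12 hours 6 fell and 0 rose, against 12% of all genes that fell, and at 3 days 6 fell and 1 rose, against 17.7% and 21.7% of all genes. Irs1, an adaptor of the insulin and IGF-1 receptors, averaged 5.31 ± 0.26 (SD, n = 4) at 6 hours and 8.38 ± 0.43 (n = 5) in control livers, and fell by 3.07 on the log2 scale (SE 0.37, limma adjusted p = 2.4e-08). Irs2, a second adaptor, rose at that time (0.98 ± 0.33), as did Foxo1 (0.95 ± 0.22), a FOXO factor that insulin restrains, while Foxo3 fell at 12 hours (-1.12 ± 0.33). Igf1r, the IGF-1 receptor, also chosen after its values were seen, was lower at 3 months (-0.76 ± 0.14) and at 7 other times.

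In male mice growth hormone pulses keep a set of liver genes at male-typical levels through Stat5b. Of 14 measured male-biased genes, 12 fell at 24 hours and 0 rose, with a median log2 fold change of -1.90, against -0.01 for all genes, of which 12.8% fell. Arrays 9, 10 and 11 at 24 hours carry Xist, and without the 7 arrays 9 fell, against 9.15% of all genes, with a median of -1.18. At 1 week 9 fell, against 14.9% of all genes, with a median of -2.33. Leaving out the 7 arrays, which drops array 4 at 1 week, gave 10 that fell, against 9.73%, with a median of -1.50. At 2 weeks and 4 weeks limma called 0 of the 14, and 0 had an unadjusted p under 0.05. When only the 2 groups were compared, 1 was called at 2 weeks and 0 at 4 weeks, and 6 and 1 had an unadjusted p under 0.05. The 0 with all groups therefore does not show a return to control levels. At 3 months that comparison called 6 of the 14, whose direction is not given here, and of all genes 3069 higher and 2363 lower. With all groups 1 of the 14 rose at 3 months, against 16.7% of all genes, and 0 fell, with a median log2 fold change of 0.30. Without the 7 arrays 2 rose there, against 17% of all genes, and 0 fell, with a median of 0.31. Serpina12, a secreted serine protease inhibitor, averaged 4.69 ± 0.32 (SD, n = 4) at 3 days and 9.45 ± 0.26 (n = 5) in control livers, and Hsd3b5, a steroid-metabolizing enzyme of male liver, averaged 4.24 ± 1.99 (n = 4) at 1 week and 11.17 ± 0.22 (n = 5) in control livers, with both operated means close to background. The male-biased Moxd1 was called higher at 3 months (adjusted p = 0.048), with 6.66 ± 2.71 (n = 3) there and 3.56 ± 0.40 (n = 5) in control livers, a control mean below background.

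Of 15 measured female-biased genes, 4 rose at 24 hours, 5 each at 48 hours, 3 days and 1 week, and 6 at 4 days, and 0 fell at these times. Of all genes 18.9% rose at 24 hours, 17.4% at 48 hours, 21.7% at 3 days, 18.8% in the 4 days group and 21.8% at 1 week. Cyp17a1, a steroid hydroxylase, rose by 3.61 ± 0.55 at 1 week and Acot3, a peroxisomal thioesterase, by 2.60 ± 0.56 at 12 hours. Without the 7 arrays 3 rose at 24 hours, against 15.5% of all genes, and 9 at 1 week, against 17.8%, while 1 fell at 48 hours (12.2% of all genes) and 2 at 3 days (17.4%). At 12 hours, where the mean of Ghr was lowest, 3 of 14 male-biased genes fell and 3 of 15 female-biased genes rose, against 12% and 17.9% of all genes. With the 7 arrays left out, 8 male-biased genes fell at 12 hours, against 12.3% of all genes, and 4 female-biased genes rose, against 17.6%, while 2 fell.

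Over the 12 group means, the gene most like Ghr among 5137 genes whose means span at least 1 log2 unit was Slco1b2 (Pearson's r = 0.97), followed by Galm and Akr1c14 (both 0.95). For Stat5b they were Sephs2 (0.97), Fasn and Grb7 (both 0.96), and for Igfals D630039A03Rik (0.98), Acy3 and Apol7a (both 0.95). For Igf1 they were Nap1l1 (0.90), Pkp2 and Mettl16 (both 0.89), for Igfbp1 Apold1 (0.87), Tspan8 and Slc13a5 (both 0.86), and for Igfbp2 B4galt5, Man2a2 (both 0.90) and Tapbp (0.88). Igfbp3 was most like Fcho2 (0.86), Erbin and Secisbp2l (both 0.85), and Igfbp4 like Acsf2 (0.82), Col5a3 and Tnrc18 (both 0.81). For Cish they were Pfn3 (0.83), Stk32a (0.82) and Tirap (0.80), and for Socs2, where the likeness was lowest, Susd6 (0.79), Il6ra and Pde7b (both 0.78). Each is the highest of 5137 values on 12 points, so high values can arise by chance. Over the 52 arrays Cish had 0.49, 0.45 and 0.40 with its 3 genes, and Socs2 0.29, 0.22 and 0.25. Ghr had 0.91, 0.90 and 0.90. Within the set, Igfals and Igfbp1 had a correlation of -0.78 over the group means and -0.68 over the 52 arrays.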

How the data were processed

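Liver RNA was hybridized to Affymetrix mouse genome arrays, 1 colour and 1 array per sample. For the deposited log2 values the submitters' processing notes name oligo 1.52.0 and the RMA method; these sources do not state whether the arrays went through it as 1 set. Array medians lay between 3.89 and 4.10, and no 2 arrays were identical. Of 45101 probe sets, 34945 carry 1 gene symbol in GEO's platform annotation, 932 several and 9211 are not listed; 18032 of 18193 genes matched a current record. The number of arrays limits the precision.

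A group-means model was fitted to all 52 arrays with limma 3.58.1 (R 4.3.3) with 11 contrasts against control and 10 between neighbouring times. On values simulated for 18193 genes, 86% of 2-fold changes were found at 6 hours and 78% at 2 weeks. These shares do not carry over to members with a wide spread. At 6 hours Socs2 (1.05 ± 0.53) and Cish (1.06 ± 0.43) did not pass, so a gene not called may still have changed 2-fold. All 10 genes are named with values. From each other list at most 2 genes with the largest rise and 2 with the largest fall are named, and per member the 3 most alike genes, beyond those marked as chosen after their values were seen. The members and lists were chosen with earlier results of these data known. Protein sequences were not used here. The alternatives tried changed the normalization, the probe set per gene, the filter on dim genes, the model and the arrays.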

Additional observations from a re-analysis of the deposited data

Results flagged for a closer look

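Of 80 groups of 4 to 10 arrays of the 10 genes, 10 held an array far from the others by Dixon's test, and chance gives about 1 in 20. Array 4 at 1 week was one of them for Ghr (9.73 against 11.40 to 11.66 in the others), Igf1 (11.82 against 11.46 to 11.52), Igfals (5.29 against 8.06 to 8.36) and Igfbp2 (10.86 against 11.75 to 11.79). Array 1 at 4 weeks was one for Ghr (10.12 against 11.94 to 12.30) and Igf1 (11.94 against 11.61 to 11.65). At 3 days array 2 was low for Stat5b (6.00 against 6.45 to 6.52) and high for Socs2 (9.63 against 8.19 to 8.30), and array 4 was high for Igfals (8.17 against 7.97 to 7.98). Array 4 at 4 weeks was low for Cish (5.53 against 7.12 to 7.32).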

How the results depend on the processing

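All 10 genes kept their F test call at an adjusted p under 0.05 under every alternative that gives one. In the main fit the moderated F test gave adjusted p of 0.021 for Igf1 and 0.011 for Igfbp4, so neither passes at 0.01. Of 2780 values of a gene at a time under an alternative, 2522 kept their side of the threshold, 190 lost the call and 65 gained one. Changes not called in either fit count among the 2522, even where their sign turned. Of the changes called in the main fit, 3 turned direction. They were Igf1 at 24 hours (-0.17 with the mean of probe sets) and Igfbp4 at 1 week and 3 months (0.15 and 0.075 with the most variable probe set). Counts of the 10 genes called against control follow. Many alternatives also move the count over all genes, so these counts alone do not set the 10 genes apart from the background. Leaving out 1 array at a time gave 0 to 1 for 1 hour, 3 to 4 for 6 hours, 6 to 7 for 12 hours, 3 to 6 for 24 hours, 1 to 3 for 48 hours, 3 to 5 for 3 days, 1 to 3 for 4 days, 1 to 4 for 1 week, 0 for 2 weeks, 0 to 2 for 4 weeks, 1 to 3 for 3 months and 5 to 10 between neighbouring times. At 1 hour 1 gene was called without dim genes, with the most variable probe set, without the 7 arrays that stood apart and without 1 week array 4 and 4 weeks array 1 (an alternative chosen after seeing the data), and 2 with array weights. At 6 hours 5 were called without dim genes, with only the 2 groups compared and without the 7 arrays, and 7 with array weights. Of all genes, array weights called 3162 higher and 3525 lower at 6 hours, against 2082 and 1916 in the main fit. The requirement of at least 2-fold left 4 at 12 hours, 2 at 24 hours, 1 each at 48 hours, 3 days, 4 days, 1 week and 3 months, 0 at 4 weeks and 4 between neighbouring times. An adjusted p under 0.01 left 2 for 24 hours, 1 for 48 hours, 2 for 3 days, 0 for 4 days, 1 for 1 week, 0 for 4 weeks, 1 for 3 months and 2 between neighbouring times. The hybridization controls as a covariate left 3 at 24 hours, 1 at 48 hours and 0 at 3 days, 4 days, 1 week, 4 weeks and 3 months, and the Gapdh difference left 3 at 24 hours, 1 at 48 hours, 3 days, 4 days and 3 months and 0 at 4 weeks; both differ between control and operated groups. The mean of probe sets gave 2 for 3 days, 1 for 4 days, 2 for 1 week, 0 for 4 weeks and 1 for 3 months, and the most variable probe set 1 at 3 months. At 1 week only the 2 groups compared gave 0, and 1 remained without 1 week array 4 and 4 weeks array 1. At 2 weeks quantile normalization and array weights gave 1 each. At 4 weeks quantile normalization gave 2, and 0 were called without the 7 arrays or without those 2 arrays. Between neighbouring times array weights gave 21 calls, leaving out the 7 arrays 14 and leaving out those 2 arrays 11. The cause of these shifts was not tested.

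Replicate numbers did not pair the samples: arrays of different groups with the same number had a mean correlation of -0.012 in their deviations from group means, and 2 of 52 arrays correlated best with their own number. The fit with the replicate block called 3 genes at 24 hours and 1 at 3 months. Of all genes called at 1 week, 59.3% were higher; quantile normalization gave 48.3% and median centring 75.6%, and the median of all genes at 1 week was 0.15 with median centring, against 0.02 without it. Signal over background limits Igfbp3 at 48 hours and the dimmer probe sets.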
